A study of Mus musculus with 6 samples.

Results

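Axon guidance genes encode the secreted and membrane-bound cues that steer growing nerve fibres, and the receptors that read them. The set described here was taken by symbol, not by measured value: semaphorins of classes 3 to 7, plexins, neuropilins, ephrins, Eph receptors, Slits, Robos, netrins, netrin-Gs and UNC5 receptors, which gave 62 of the 13673 genes in the deposited table. Trigeminal ganglia, which hold the sensory neurons of the face and jaw with their glia, came from wild-type mice at day 3 after an injection of CFA (complete Freund's adjuvant, an oil emulsion that provokes local inflammation) or of saline, with 3 libraries for each treatment. The sources used here do not give strain, age, sex or injection site. The labels do not say that each library is a separate animal, and p-values therefore cover only the variation among these libraries, which may be technical. Of the 62 symbols, 61 belong to the guidance families. The other, Unc50, was caught by its spelling alone: it encodes a Golgi-associated membrane protein whose relative in the worm Caenorhabditis elegans is needed for acetylcholine receptor trafficking. The selection rule also matches 11 protein-coding genes of the GENCODE M21 annotation that have no row in the deposited table and could not be analysed. These are the netrin receptor gene Dcc, and Epha1, Epha8, Ephb2, Ntn3, Robo3, Robo4, Sema3a, Sema5b, Slit3 and Unc5cl.

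Many of these molecules remain in use in the adult. Semaphorins signal through plexins, and most secreted class 3 members also need a neuropilin as co-receptor. Ephrins and Eph receptors are both held in membranes and signal at contacts between cells, in both directions. Slits repel axons through Robo receptors, and netrins attract through DCC or repel through UNC5 receptors. These systems also act on glia, blood vessels and immune cells, and a ganglion library adds up the RNA of all of them, so fewer cells of a type and less RNA per cell cannot be told apart.

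Totals of the 6 libraries were 261183 to 275152 FPKM (fragments per kilobase of transcript and per sequencing depth, the authors' unit), and their rank correlations across genes were 0.950 to 0.967 within treatments and 0.945 to 0.968 between them. Neuron markers were abundant in each, with the neuronal tubulin gene Tubb3 at 821 to 916 FPKM with CFA and 686 to 974 FPKM with saline. Pituitary transcripts set libraries apart within both treatments, with growth hormone (Gh) at 194 to 2363 FPKM with CFA and 157 to 3482 FPKM with saline. Differences below are log2 fold changes, CFA minus saline, of log2(FPKM + 1), a scale that understates the change of genes with low FPKM. They were tested with limma over the 12238 genes whose mean over the 6 libraries was at least 1 FPKM. Of the 62 members, 53 passed that filter, 9 with lower means were not tested, and none was listed at 0 in any library.

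No axon guidance gene passed the test over all genes. By limma 0 of the 53 tested members had an adjusted p below 0.05, against a background of 0.0572% of all genes tested. At an unadjusted p below 0.05 there were 6 members, 11.3% of those tested beside 8.32% of all genes. Of these, 5 were higher with CFA (Unc5b, Ephb1, Efnb3, Ntn1 and Sema4d), which is 9.43% beside 5.37% of all genes, and 1 was lower (Epha5), which is 1.89% beside 2.95% of all genes. Ntn1 and Epha5 passed the filter only through the treatment in which they were high, and the shares above include them. With no filter the same 6 were 9.68% of the 62 members, beside 8.43% of all genes. With a filter of 5 FPKM, which tests 23 members, 1 was below this threshold, 4.35% beside 8.58% of all genes. The CFA and saline libraries did not overlap in 12 members, 22.6% beside 14.5% of all genes, with 7 higher (background 7.89%) and 5 lower (background 6.66%). Ntn1 and Epha5 are among these 12 as well. The 9 members not tested all overlapped, so the share of the 62 is smaller.

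Summed over the set, the guidance genes overlapped between the treatments. Their median log2 fold change was 0.013, beside 0.0052 over all genes tested, and 30 of the 53 were above 0, which is 56.6% beside 51.4% of all genes. Single members ran from −0.45 to 0.59 on this scale, and with a pseudocount of 0.1 the lowest and highest of the 6 were Epha5 at −0.76 and Unc5b at 0.69. The summed level of the 61 guidance genes was 308 ± 8.25 FPKM with CFA and 303 ± 14.5 FPKM with saline (SD, n = 3 each). On the log2(FPKM + 1) scale, the 95% interval of 43 of the 53 members lay within 1.5-fold either way, 81.1% beside 78.6% of all genes, and for 50 it lay within 2-fold, 94.3% beside 92.4%. These are no bounds on the ratio of FPKM for low genes: Ntn1 counts as within 1.5-fold with an FPKM ratio of 1.57. The 3 members with wider intervals were Sema3c, Sema6d and Efna1.

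**Figure D1:**
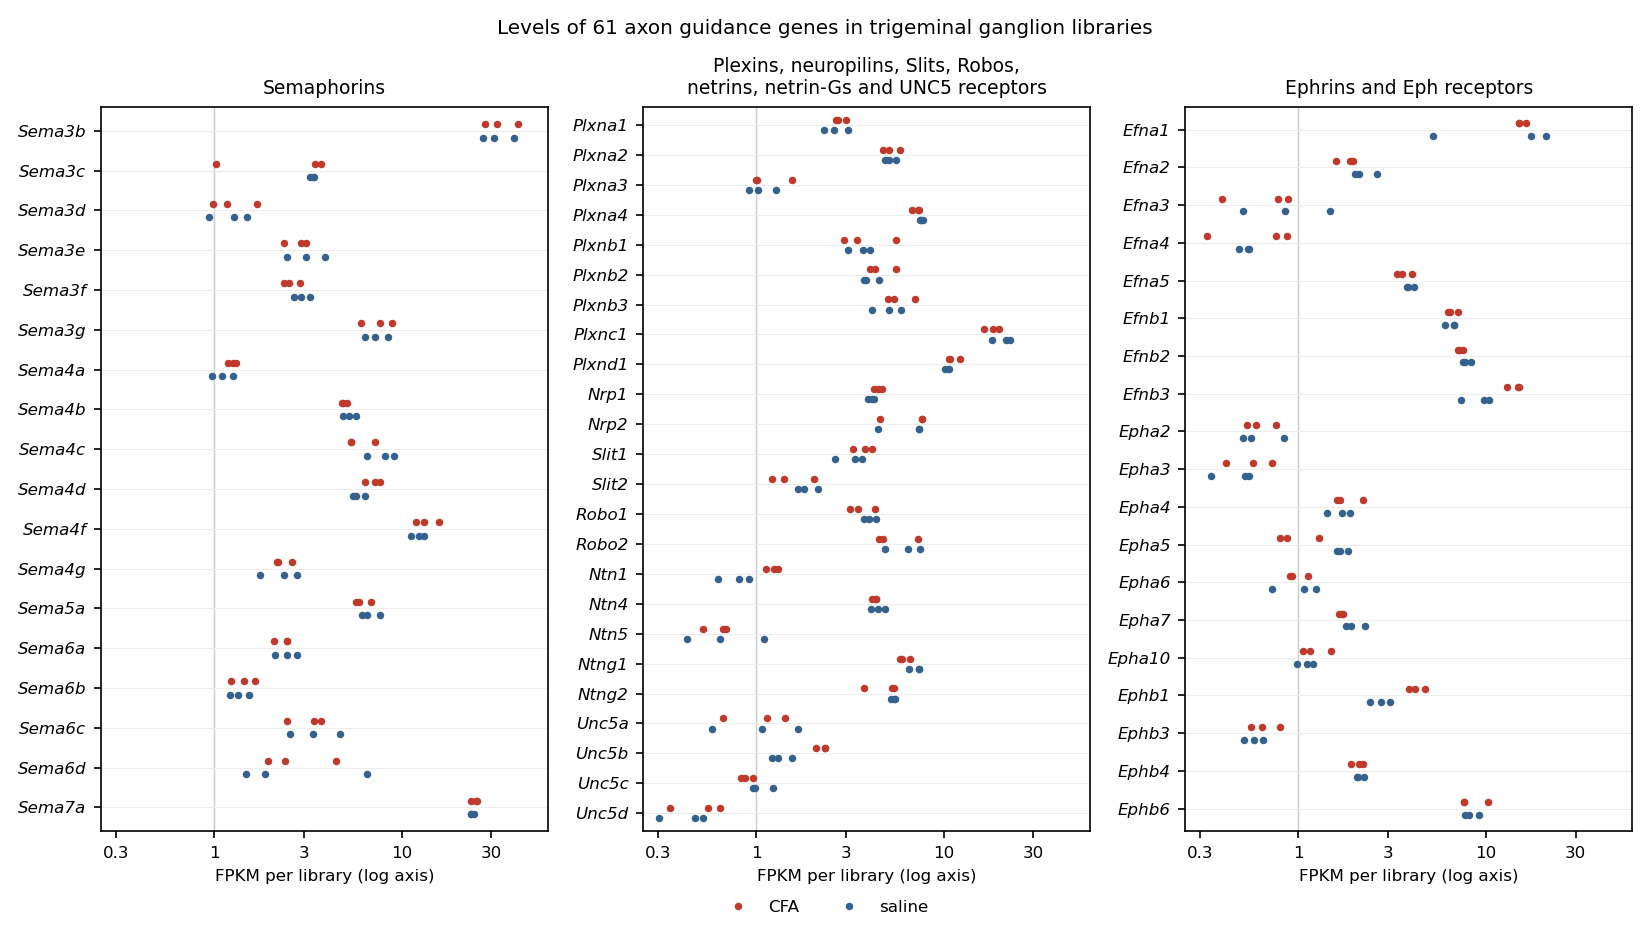
FPKM of the 61 guidance genes in each library on a log axis, with CFA libraries in red above saline libraries in blue in each row and a grey line at 1 FPKM. The highest gene is Sema3b, at 27.9 to 41.8 FPKM with CFA and 27.2 to 39.8 FPKM with saline, and the treatments overlap in most rows.

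**Figure D2:**
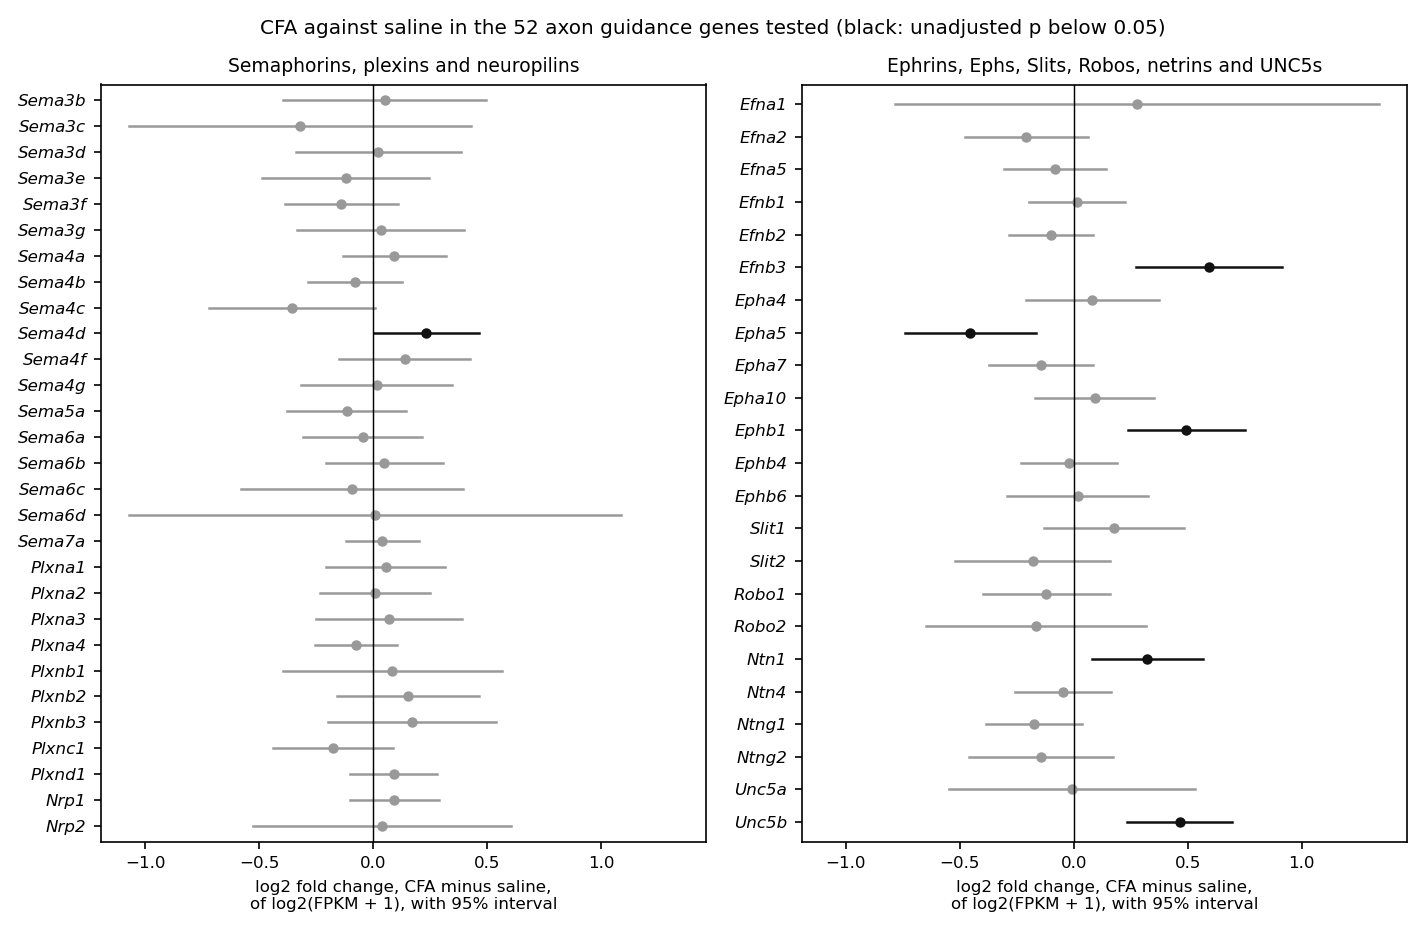
Log2 fold change, CFA minus saline, with its 95% interval for the 52 guidance genes tested. The 6 genes with an unadjusted p below 0.05 are black (Efnb3, Ephb1, Unc5b, Ntn1 and Sema4d to the right of 0, Epha5 to the left), and the widest intervals belong to Sema6d, Efna1 and Sema3c.

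The member with the smallest p was Unc5b, which encodes a netrin receptor that mediates repulsion and is also known from blood vessels. Unc5b stood at 2.33, 2.096 and 2.32 FPKM in the CFA libraries, against 1.55, 1.31 and 1.22 FPKM in the saline libraries. The treatments did not overlap, and the gap between them was wider than the range within either. Its log2 fold change was 0.46 (SE 0.0965, 95% interval 0.23 to 0.69), with an unadjusted p of 0.00226 and an adjusted p of 0.241 by limma. The level was low, 2.25 ± 0.133 FPKM with CFA and 1.36 ± 0.173 FPKM with saline (SD, n = 3 each).

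Netrin-1, a ligand of UNC5 receptors, was also among the 6. Ntn1 stood at 1.12, 1.24 and 1.31 FPKM in the CFA libraries, against 0.623, 0.812 and 0.9102 FPKM in the saline libraries. Every CFA library was above every saline library, at levels close to the filter of 1 FPKM. Ntn1 averaged 1.22 ± 0.0943 FPKM with CFA and 0.782 ± 0.146 FPKM with saline and so passed the filter only through the CFA libraries, and with median-of-ratios scaling it did not pass. The log2 fold change was 0.32 (SE 0.102), with an unadjusted p of 0.0168 and an adjusted p of 0.501 by limma, and without any filter the unadjusted p was 0.0144. With a pseudocount of 0.1 in place of 1 the log2 fold change was 0.60.

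A B ephrin and an EphB receptor were higher with CFA as well. Ephb1, a receptor tyrosine kinase for B ephrins, stood at 4.74, 4.19 and 3.905 FPKM in the CFA libraries, against 2.76, 3.06 and 2.42 FPKM in the saline libraries. No saline library reached the lowest CFA library, and the log2 fold change was 0.49 (SE 0.108; unadjusted p = 0.00293, adjusted p = 0.262 by limma). Exons of Ephb1 share 152 bases with Gm26846 on the other strand, and no source used here states whether quantification used strand. Efnb3, a transmembrane ephrin known from the midline of the spinal cord, stood at 15.01, 14.8 and 12.98 FPKM in the CFA libraries, against 9.78, 10.4 and 7.37 FPKM in the saline libraries. Its treatments were separate too, and its log2 fold change was 0.59 (SE 0.134; unadjusted p = 0.00351, adjusted p = 0.275 by limma).

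The remaining genes of the 6 were a receptor that was lower and a semaphorin that was higher. Epha5, a receptor for A ephrins, stood at 0.872, 1.29 and 0.794 FPKM in the CFA libraries, against 1.66, 1.61 and 1.84 FPKM in the saline libraries. Its highest CFA library, replicate 2, was below the lowest saline library. Epha5 averaged 0.984 ± 0.264 FPKM with CFA and 1.703 ± 0.122 FPKM with saline and so passed the filter only through the saline libraries. The log2 fold change of Epha5 was −0.45 (SE 0.1200; unadjusted p = 0.00761, adjusted p = 0.389 by limma), the unadjusted p without any filter was 0.00697, and with a pseudocount of 0.1 the log2 fold change was −0.76. Sema4d, a transmembrane semaphorin that binds plexin-B1 and is made by oligodendrocytes and lymphocytes among other cells, stood at 7.18, 7.64 and 6.41 FPKM in the CFA libraries, against 5.68, 6.39 and 5.52 FPKM in the saline libraries. CFA replicate 3 and saline replicate 2 were nearly level, so the separation was narrow. The log2 fold change of Sema4d was 0.23 (SE 0.0968; unadjusted p = 0.0482, adjusted p = 0.598 by limma).

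**Figure D3:**
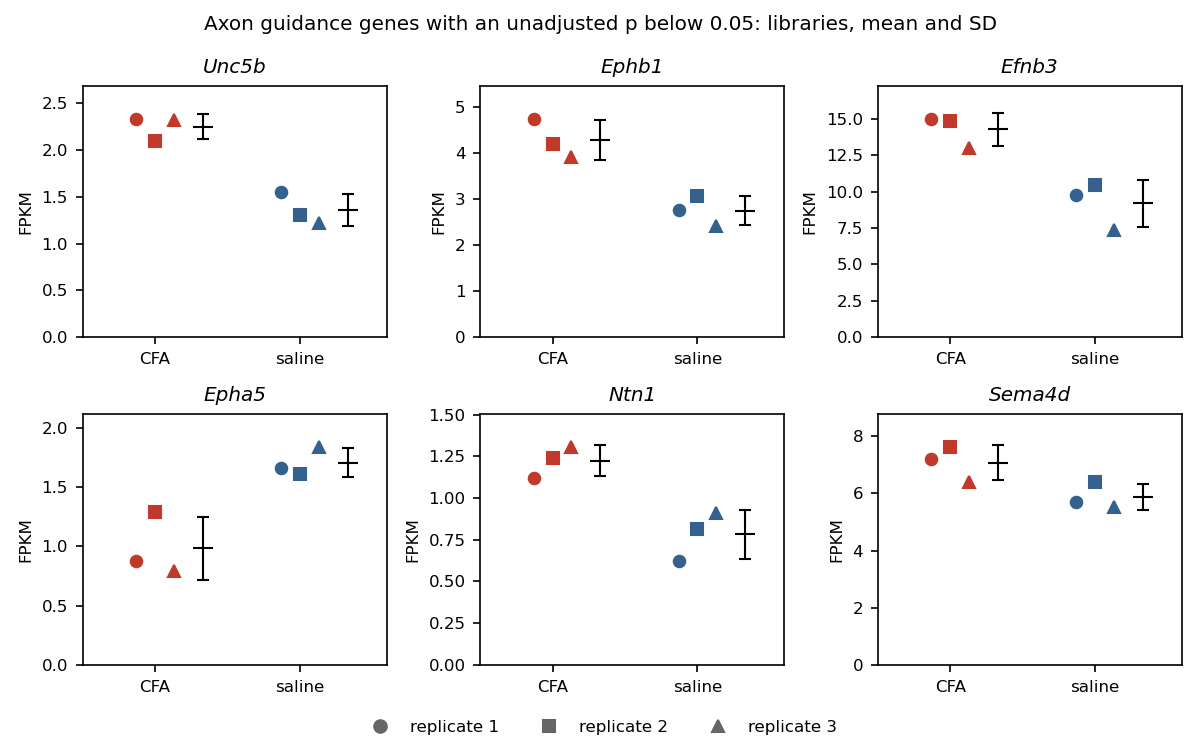
FPKM of the 6 genes with an unadjusted p below 0.05, with a symbol per replicate number and the mean with its SD (n = 3) beside each group, CFA left of saline. Unc5b, Ephb1, Efnb3, Ntn1 and Sema4d are higher and Epha5 is lower with CFA, without overlap of the treatments in any of the 6.

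Summed markers of central and satellite glia did not overlap between the treatments, while those of Schwann cells did. Over all genes tested, 51.4% had a positive log2 fold change. The share of all genes at an unadjusted p below 0.05 by limma was 8.32%, with 5.37% higher and 2.95% lower. Gfap, 1 of 12 markers of oligodendrocytes and astrocytes of central tissue, is also made by peripheral glia. All 12 had a positive log2 fold change and 10 had an unadjusted p below 0.05. Their summed level was 369.9 to 439 FPKM with CFA and 240.4 to 312 FPKM with saline, without overlap, and none of the 12 was at 0 in any library; the myelin gene Mog stood at 35.1 to 40.8 FPKM with CFA and 18.8 to 27.4 FPKM with saline. Within each treatment this sum was lowest in replicate 3, as were Efnb3, Ephb1 and Sema4d. Unc5b, Ntn1 and Epha5 were not lowest there in both treatments: Ntn1 was lowest in replicate 1 of each, and Unc5b in CFA replicate 2. In the saline libraries the sum, Efnb3, Ephb1 and Sema4d were highest in replicate 2. With CFA the sum and Sema4d were highest in replicate 2, but Efnb3 and Ephb1 in replicate 1. The share of all genes lowest in replicate 3 of both treatments was not counted. Of 10 satellite glia markers, 4 were higher and 1 was lower at an unadjusted p below 0.05, and their sum was 1705 to 2189 FPKM with CFA and 1177 to 1500.1 FPKM with saline, again without overlap. Schwann cell markers overlapped, with sums of 2161 to 2515 FPKM with CFA and 2144 to 2969 FPKM with saline and 5 of 10 above 0, of which 2 were higher at an unadjusted p below 0.05. The part of these glia in the values of the 6 genes was not tested.

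At an unadjusted p below 0.05 by limma, 5.37% of all genes tested were higher and 2.95% lower. Of 11 markers of fibroblasts and meninges, 4 were higher and 1 was lower at that threshold. Their sum was lower with CFA, at 396 to 457 FPKM with CFA and 464 to 498 FPKM with saline, without overlap. Ogn made up nearly all of the difference between the mean sums, at 162 ± 17.6 FPKM with CFA and 226 ± 20.4 FPKM with saline. Endothelial sums overlapped, and macrophage sums overlapped only through saline replicate 3. Of 12 tested endothelial markers 0 had an unadjusted p below 0.05 by limma, beside 8.32% of all genes, and 0 passed over all genes. Sums over all 15 endothelial markers, with the untested ones, were 44.02 to 48.7 FPKM with CFA and 41.9 to 46.7 FPKM with saline. Of 11 tested macrophage markers, 6 were higher and 1 was lower at an unadjusted p below 0.05 by limma. No overlap was seen in 6 of the 11, all higher with CFA, which is 54.5% beside 14.5% of all genes. Sums over the list were 183 to 204 FPKM with CFA and 144 to 485 FPKM with saline. The upper end was saline replicate 3, where Lyz2 alone stood at 396 FPKM.

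**Figure D4:**
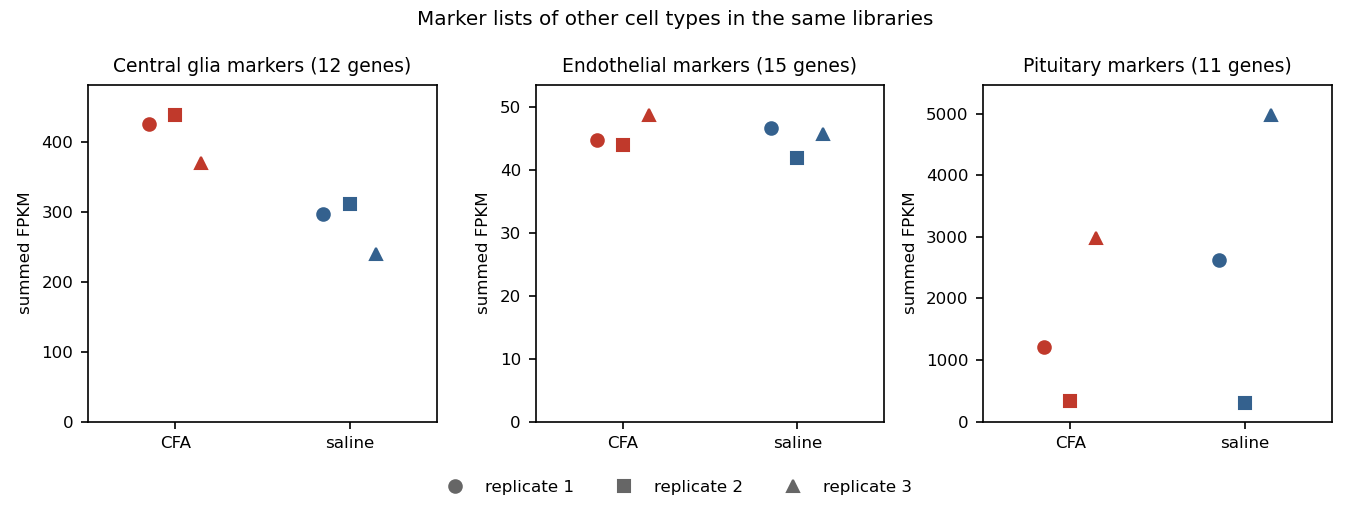
Summed FPKM of marker lists in each library, CFA left of saline, with a symbol per replicate number. Central glia markers are at 369.9 to 439 FPKM with CFA and 240.4 to 312 FPKM with saline, endothelial markers overlap, and pituitary markers range over 341 to 2984 FPKM with CFA and 301 to 4974 FPKM with saline.

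Promoter sequences were set beside these results because the series concerns IRF7, a transcription factor that binds interferon-stimulated response elements. The windows come from RefSeq (GRCm38.p6) and run from 250 bases before to 50 bases after a gene's start, and 53 of the 62 members have at least 1. The core of the element was searched as GAAANNGAAA on both strands. It was found in 2 of the 53 members, Plxnc1 and Sema6b, which is 3.77% beside 3.99% of all genes with a window. Both of these genes overlapped between the treatments. The windows of Unc5b and Ephb1, the members with the smallest p, hold no match, which says only that those letters are absent from these windows. Capitals mark the match, and each sequence runs 5′ to 3′ on the gene's strand.
Unc5b, chr10:60831532-60831831, minus strand: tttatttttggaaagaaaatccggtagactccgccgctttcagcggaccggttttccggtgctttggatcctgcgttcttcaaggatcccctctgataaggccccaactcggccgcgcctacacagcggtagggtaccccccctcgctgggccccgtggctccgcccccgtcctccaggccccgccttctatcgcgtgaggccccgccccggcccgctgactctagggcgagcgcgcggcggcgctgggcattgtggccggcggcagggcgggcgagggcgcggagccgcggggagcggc
Ephb1, chr9:102354644-102354943, minus strand: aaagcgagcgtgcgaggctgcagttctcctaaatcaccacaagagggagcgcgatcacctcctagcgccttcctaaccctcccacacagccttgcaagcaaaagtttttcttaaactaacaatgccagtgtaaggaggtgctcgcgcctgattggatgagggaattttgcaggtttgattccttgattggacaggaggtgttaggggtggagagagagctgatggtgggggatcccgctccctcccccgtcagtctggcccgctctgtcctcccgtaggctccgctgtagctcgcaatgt
Plxnc1, chr10:94944796-94945095, minus strand: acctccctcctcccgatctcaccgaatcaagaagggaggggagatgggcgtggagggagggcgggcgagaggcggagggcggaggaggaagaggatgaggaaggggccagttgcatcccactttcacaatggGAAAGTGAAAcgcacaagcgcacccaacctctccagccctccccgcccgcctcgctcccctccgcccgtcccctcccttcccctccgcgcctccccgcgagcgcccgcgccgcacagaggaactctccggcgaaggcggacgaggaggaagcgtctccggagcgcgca
Sema6b, chr17:56140294-56140593, minus strand: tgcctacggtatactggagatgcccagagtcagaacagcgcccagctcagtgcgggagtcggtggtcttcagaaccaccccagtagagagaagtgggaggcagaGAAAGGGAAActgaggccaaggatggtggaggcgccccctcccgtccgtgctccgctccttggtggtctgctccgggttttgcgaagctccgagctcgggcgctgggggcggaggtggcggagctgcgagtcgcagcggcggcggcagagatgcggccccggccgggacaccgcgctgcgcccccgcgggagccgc
The match lies 118 bases before the start of Plxnc1 and 146 bases before that of Sema6b. G and C make up 69.7% of the Unc5b window and 55.7% of the Ephb1 window, and the median was 64.0% over the 69 windows of members, beside 52.7% over all windows.

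Secreted class 3 semaphorins held the highest level of the set. Sema3b, a repellent that signals through neuropilins, stood at 32.1, 27.9 and 41.8 FPKM in the CFA libraries and 39.8, 31.05 and 27.2 FPKM in the saline libraries. The ranges overlapped almost entirely. Its log2 fold change of 0.05 (95% interval −0.40 to 0.50) was −0.11 without CFA replicate 3 and −0.07 without saline replicate 3. Sema3g followed at 7.57 ± 1.42 FPKM with CFA and 7.34 ± 1.05 FPKM with saline (SD, n = 3 each). Sema3c, Sema3d, Sema3e, a ligand that binds plexin-D1 without a neuropilin, and Sema3f, the classical ligand of neuropilin-2, had means over the 6 libraries of 1.26 to 3.04 FPKM. Summed over its 6 members, class 3 stood at 50.9 ± 6.61 FPKM with CFA and 50.7 ± 6.11 FPKM with saline.

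Sema7a, held to the membrane by a lipid anchor and known to bind plexin-C1 and integrins, was the next ligand by level and one of the steadiest members. It stood at 25.3, 24.9 and 23.4 FPKM in the CFA libraries and 23.6, 23.4 and 24.4 FPKM in the saline libraries. The treatments overlapped, and the 95% interval of −0.12 to 0.20 around a log2 fold change of 0.04 was narrow. Its range over the 6 libraries lay below that of Sema3b without overlap.

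Of the membrane-bound class 4 semaphorins, Sema4f was highest at 13.7 ± 2.05 FPKM with CFA and 12.3 ± 1.02 FPKM with saline. Sema4c, a ligand of plexin-B2, stood at 7.18, 5.39 and 5.396 FPKM in the CFA libraries and 9.12, 8.19 and 6.501 FPKM in the saline libraries. CFA replicate 1 lay above saline replicate 3, so the treatments overlapped. The log2 fold change of Sema4c was −0.35 (SE 0.152; unadjusted p = 0.0552, adjusted p = 0.608 by limma). Sema4a, Sema4b and Sema4g had log2 fold changes of 0.09, −0.08 and 0.02. Sema5a, which binds plexin-B3, stood at 6.17 ± 0.621 FPKM with CFA and 6.78 ± 0.766 FPKM with saline. Class 6 members, ligands of A plexins, had means over the 6 libraries of 1.403 to 3.37 FPKM, and by limma 0 of the 4 had an unadjusted p below 0.05 (background 8.32%).

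Among the semaphorin receptors, plexin-C1 and plexin-D1 were the most abundant. Plxnc1, the receptor of Sema7a, stood at 16.4, 19.8 and 18.4 FPKM in the CFA libraries and 18.1, 21.4 and 22.5 FPKM in the saline libraries. It was lower on average with CFA, with overlapping ranges, and its log2 fold change was −0.18 (SE 0.1102; adjusted p = 0.694 by limma). Plxnd1, the receptor of Sema3e, stood at 10.8, 10.7 and 12.2 FPKM in the CFA libraries and 10.5, 10.7 and 10.1 FPKM in the saline libraries. Its lowest CFA library was just above its highest saline library, and the log2 fold change was 0.09 (SE 0.0797; adjusted p = 0.745 by limma). Over the 6 libraries the ranges of Plxnc1, Plxnd1 and the other plexins did not overlap, which places these at the top in that order.

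The next plexin by mean, Plxna4, stood at 7.36, 7.29 and 6.75 FPKM in the CFA libraries and 7.74, 7.45 and 7.53 FPKM in the saline libraries, and in CFA replicate 3 it lay below Plxnb3. The treatments did not overlap in Plxna4, and its log2 fold change was −0.08 (SE 0.0752; adjusted p = 0.768 by limma). Plxnb3, Plxna2, Plxnb2 and Plxnb1 had means over the 6 libraries of 5.44, 5.21, 4.34 and 3.798 FPKM with overlapping ranges. Plxna3 was lowest, at 1.19 ± 0.318 FPKM with CFA and 1.07 ± 0.182 FPKM with saline. By limma 0 of the 9 plexins had an unadjusted p below 0.05, beside 8.32% of all genes, and 9 of 9 had a 95% interval within 1.5-fold on the log2(FPKM + 1) scale, beside 78.6%. Their sum was 60.2 ± 4.19 FPKM with CFA and 60.3 ± 2.14 FPKM with saline.

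The neuropilins had different patterns across libraries. Nrp1, a co-receptor for class 3 semaphorins and for VEGF, stood at 4.45, 4.23 and 4.69 FPKM in the CFA libraries and 4.15, 3.97 and 4.23 FPKM in the saline libraries. The lowest CFA and the highest saline library were nearly level, and the log2 fold change was 0.09 (SE 0.0814; adjusted p = 0.746 by limma). Nrp2, by contrast, stood at 7.61, 4.597 and 7.63 FPKM in the CFA libraries and 4.48, 7.36 and 7.37 FPKM in the saline libraries. CFA replicate 2 and saline replicate 1 were low and the other 4 libraries were close together.

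In the ephrin and Eph system, 13 of 19 genes were tested and 6 had treatments without overlap, which is 46.2% beside 14.5% of all genes. With CFA 2 were higher (Efnb3 and Ephb1, background 7.89%) and 4 were lower (Efna2, Efnb2, Epha5 and Epha7, background 6.66%). Epha5 is counted here although it passed the filter only through the saline libraries. The genes not tested (Efna3, Efna4, Epha2, Epha3, Epha6 and Ephb3) all overlapped, so the share of all 19 is smaller. No share of all genes without the filter is given for overlap. Among the other B ephrins, Efnb1 stood at 6.605 ± 0.4602 FPKM with CFA and 6.53 ± 0.398 FPKM with saline. Efnb2, a marker of arterial vessels and a ligand of EphB4, stood at 7.18, 7.503 and 7.06 FPKM in the CFA libraries and 7.52, 7.69 and 8.29 FPKM in the saline libraries. CFA replicate 2 and saline replicate 1 almost met, and the log2 fold change was −0.10 (SE 0.0773; adjusted p = 0.726 by limma). The sum of the 3 B ephrins was 28.1 ± 1.62 FPKM with CFA and 23.6 ± 1.62 FPKM with saline. Efnb3 alone carried this difference, as Efnb1 was nearly level and Efnb2 was lower on average with CFA.

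A ephrins, attached by a lipid anchor, were dominated by Efna1. It stood at 14.99, 15.02 and 16.4 FPKM in the CFA libraries and 20.8, 17.4 and 5.24 FPKM in the saline libraries. Saline replicate 3 was the lowest library of all, while the other saline libraries were above every CFA library. The log2 fold change of 0.28 (SE 0.445; adjusted p = 0.861 by limma) was −0.28 without saline replicate 3, with an unadjusted p of 0.0426 and an adjusted p of 0.766. Rnd2, a small GTPase that binds plexins, was low in the same library, at 26.2, 22.9 and 24.99 FPKM in the CFA libraries and 20.6, 19.03 and 6.34 FPKM in the saline libraries. Efna1, Efna3 and Efna4 lie next to each other on chromosome 3 (GRCm38), with gaps of 32756 and 10424 bases. Efna3 and Efna4 had means over the 6 libraries of 0.815 and 0.586 FPKM and were not tested. Efna2 stood at 1.81 ± 0.201 FPKM with CFA and 2.25 ± 0.332 FPKM with saline and Efna5 at 3.66 ± 0.3597 FPKM with CFA and 3.92 ± 0.181 FPKM with saline.

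Ephb6, which lacks kinase activity, had the highest mean of the Eph receptors, followed by Ephb1. It stood at 7.66, 7.67 and 10.2 FPKM in the CFA libraries and 9.18, 8.16 and 7.71 FPKM in the saline libraries. The treatments overlapped in Ephb6, and the log2 fold change of 0.02 (SE 0.129) was −0.11 without CFA replicate 3. Ephb4, known from veins, stood at 2.08 ± 0.159 FPKM with CFA and 2.13 ± 0.0891 FPKM with saline. Epha7 stood at 1.65, 1.74 and 1.71 FPKM in the CFA libraries and 1.79, 1.92 and 2.26 FPKM in the saline libraries. Every CFA library of Epha7 was below every saline library (log2 fold change −0.14, SE 0.0962; adjusted p = 0.707 by limma). Epha4, which binds ephrins of both classes, stood at 1.83 ± 0.3299 FPKM with CFA and 1.67 ± 0.228 FPKM with saline. Epha2, Epha3, Epha6 and Ephb3 had means below 1 FPKM and were not tested, and the lowest was Epha3 at 0.568 ± 0.154 FPKM with CFA and 0.4696 ± 0.1095 FPKM with saline.

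The treatments overlapped in the 4 Slit and Robo genes measured, where 14.5% of all genes had no overlap. Slit1 stood at 4.15, 3.296 and 3.82 FPKM in the CFA libraries and 2.62, 3.67 and 3.36 FPKM in the saline libraries, and its log2 fold change was 0.18 (SE 0.129; adjusted p = 0.712 by limma). Slit2 stood at 1.21, 1.41 and 2.02 FPKM in the CFA libraries and 1.68, 1.804 and 2.13 FPKM in the saline libraries, and its log2 fold change was −0.18 (SE 0.142; adjusted p = 0.726 by limma). Robo2, a Slit receptor of sensory axons, stood at 4.77, 7.25 and 4.49 FPKM in the CFA libraries and 4.85, 7.499 and 6.42 FPKM in the saline libraries, and replicate 2 was highest in both treatments. Robo1 stood at 3.64 ± 0.579 FPKM with CFA and 4.03 ± 0.295 FPKM with saline, and its log2 fold change was −0.12 (SE 0.116).

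Netrin-Gs, which are anchored to the axon surface by a lipid and bind partners on other cells in place of DCC or UNC5, had the highest means of the netrin system. Ntng1 stood at 6.004, 6.59 and 5.84 FPKM in the CFA libraries and 6.51, 7.35 and 7.34 FPKM in the saline libraries. CFA replicate 2 lay just above saline replicate 1, and the log2 fold change was −0.17 (SE 0.0882; unadjusted p = 0.0905, adjusted p = 0.635 by limma). Ntng2 stood at 5.32, 5.41 and 3.76 FPKM in the CFA libraries and 5.49, 5.24 and 5.43 FPKM in the saline libraries, with CFA replicate 3 alone below the rest, and its exons share 558 bases with 6530402F18Rik on the same strand. Ntn4, a netrin of basement membranes, stood at 4.29 ± 0.121 FPKM with CFA and 4.47 ± 0.389 FPKM with saline.

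Besides Unc5b, the UNC5 receptors were near 1 FPKM or below. Unc5a ranged over 0.662 to 1.42 FPKM with CFA and 0.581 to 1.68 FPKM with saline. Unc5c stood at 0.891 ± 0.0658 FPKM with CFA and 1.06 ± 0.147 FPKM with saline, and Unc5d, the lowest of the 61 genes by mean, at 0.514 ± 0.153 FPKM with CFA and 0.433 ± 0.115 FPKM with saline. Unc5c, Unc5d and Ntn5 were not tested. Unc50, the member outside the families, stood at 19.00 ± 2.202 FPKM with CFA and 18.9 ± 1.71 FPKM with saline.

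A few members varied widely between libraries of a treatment, and these were chosen after their values were seen. The spread within treatments, as an SD of log2(FPKM + 1), was 0.700 in Sema6d and 0.694 in Efna1, beside a median of 0.139 over all genes tested. Sema6d stood at 1.94, 4.47 and 2.398 FPKM in the CFA libraries and 6.55, 1.48 and 1.87 FPKM in the saline libraries. CFA replicate 2 and saline replicate 1 were high, the same libraries in which Nrp2 was low. Sema3c stood at 3.45, 3.699 and 1.03 FPKM in the CFA libraries and 3.26, 3.37 and 3.43 FPKM in the saline libraries, with CFA replicate 3 alone apart. In GENCODE M21 Sema6d has 11 annotated transcripts, Nrp2 has 7, Sema3c has 5 and Efna1 has 3, against a median of 5 over the 62 members. The part of isoform assignment in these values was not tested.

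**Figure D5:**
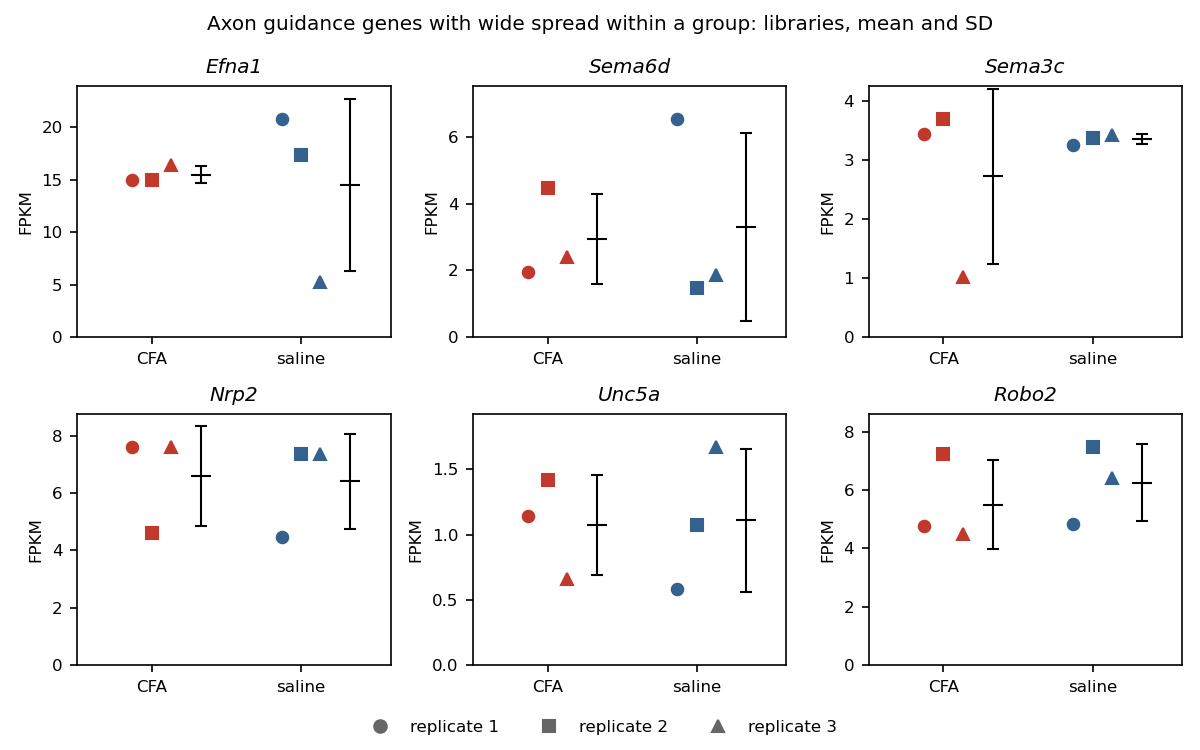
FPKM of 6 guidance genes with wide spread within a treatment, with a symbol per replicate number and the mean with its SD (n = 3), CFA left of saline. Sema3c is low in CFA replicate 3 (1.03) and Efna1 in saline replicate 3 (5.24), while Sema6d is high and Nrp2 low in CFA replicate 2 and saline replicate 1.

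Genes that work with these ligands and receptors were listed as co-receptors and adhesion molecules, further ligands, intracellular effectors, and proteases and phosphatases. Of the 121 with a row, 116 were tested. By limma 0 passed over all genes, and at an unadjusted p below 0.05 there were 1 higher (0.862% beside 5.37% of all genes) and 2 lower (1.72% beside 2.95%). Pak1, a kinase activated by Rac and Cdc42 that links guidance receptors to actin, stood at 23.2, 26.5 and 26.05 FPKM in the CFA libraries and 17.6, 20.5 and 23.7 FPKM in the saline libraries. CFA replicate 1 lay below saline replicate 3, so the treatments overlapped (log2 fold change 0.29, SE 0.118; unadjusted p = 0.0461, adjusted p = 0.593 by limma). Shh, a morphogen that also guides axons, stood at 7.25, 7.397 and 6.29 FPKM in the CFA libraries and 10.1, 9.47 and 7.95 FPKM in the saline libraries, with every CFA library lower (log2 fold change −0.35, SE 0.1104; unadjusted p = 0.0177, adjusted p = 0.507 by limma). Gsk3b, a kinase that acts on semaphorin mediators of the CRMP family, stood at 27.00, 31.3 and 25.2 FPKM in the CFA libraries and 31.8, 32.98 and 34.3 FPKM in the saline libraries, again without overlap (log2 fold change −0.24, SE 0.0948; unadjusted p = 0.0382, adjusted p = 0.5799 by limma). Neo1, which encodes neogenin, a relative of DCC that binds netrins, stood at 4.81, 5.84 and 3.95 FPKM in the CFA libraries and 3.33, 4.08 and 4.94 FPKM in the saline libraries. Its treatments overlapped, and its log2 fold change was 0.20 (SE 0.165; adjusted p = 0.738 by limma).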

How the data were processed

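The authors deposited FPKM values, per the file headers, for 13673 protein-coding genes in 6 libraries; 1 line of the table is empty. Submitters' processing notes name the build GRCm38. Aligner, quantification tool, annotation and strand setting were not found in the sources used here. Poly(A) selection and a stranded KAPA kit are named, per the labels' protocols. The larger treatment mean of each row is 0.501 FPKM or more. Read depth is unknown, so no counting interval is given.

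Genes averaging 1 FPKM or more were compared on log2(FPKM + 1) with limma 3.58.1 in R 4.3.3 (trended eBayes, two-sided, no covariate), with Benjamini-Hochberg adjustment over 12238 genes and a threshold of 0.05. The fit was tested on simulated libraries with known changes and independent noise for each gene. These hold no differences shared across genes of a library, so they do not show how p-values behave with such differences. GENCODE M21 gave transcripts and exon overlaps; 57 of 62 members had identical coordinates there, and exons of 17 overlap another gene.

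Members and lists were chosen with earlier results of these data known. The rule named members at an unadjusted p below 0.05, the highest and lowest of each system, partner genes at an unadjusted p below 0.05, and Neo1; others were named after their values were seen. Over all genes tested, deviations of same-numbered libraries correlated at 0.0803, 0.111 and −0.0475. These values do not settle whether same-numbered libraries were paired. Summed pituitary and central glia markers ranked the replicate numbers alike in both treatments, while summed endothelial and Schwann cell markers did not. Alternative scalings, filters, pseudocounts, moderation, a replicate block and fits without libraries were run.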

Additional observations from a re-analysis of the deposited data

How the results depend on the processing

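By limma 0 members passed an adjusted p of 0.05 under any alternative run, and the lowest adjusted p of any member ranged from 0.202 (eBayes without trend) to 0.724 (without CFA replicate 1). Members at an unadjusted p below 0.05 numbered 5 higher and 1 lower. They were 1 higher and 0 lower with a mean filter of 5 FPKM, which tests 23 members, and 3 higher with median-of-ratios scaling, where Ntn1 is not tested. In both directions together, members made up a smaller share than all genes under the filter of 5 FPKM (4.35% beside 8.58%), with median-of-ratios scaling (7.69% beside 8.47%) and without CFA replicate 2 (9.43% beside 12.9%). They were 2 lower with a common total, 2 lower with a replicate block, and 2 lower without both libraries numbered 3, and without any 1 library 4 to 5 higher and 1 to 3 lower. Unc5b, Ephb1, Efnb3 and Epha5 stayed below an unadjusted p of 0.05 in the 6 fits without a library, Ntn1 in 5 and Sema4d in 2. By limma Epha5 and Sema4d did not without both libraries numbered 3, at unadjusted values of 0.0652 and 0.0672. Sema4d was also above it with median-of-ratios scaling (0.0701), quantile normalization (0.0697), a common total (0.0527) and the filter of 5 FPKM (0.0560). With a pseudocount of 0.1 the log2 fold changes were 0.69 for Unc5b, 0.64 for Efnb3, 0.62 for Ephb1, 0.60 for Ntn1, 0.27 for Sema4d and −0.76 for Epha5, and the same 6 were below an unadjusted p of 0.05. Sema4c came below it with a common total, the replicate block, without CFA replicate 1, without saline replicate 3 and without both libraries numbered 3.

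The members' median log2 fold change was −0.029 without both libraries numbered 3 and −0.042 to 0.019 without any 1 library. Partner genes were 2 higher with no filter, 0 higher with a common total, 0 higher and 4 lower with quantile normalization, 0 higher without trend, 1 lower with the block, and 4 higher without both libraries numbered 3; without any 1 library they were 1 to 3 higher and 1 to 4 lower. Genes called numbered 7 over the whole table, 1 with the replicate block and 5 to 19 without any 1 library.

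Without any 1 library, Sema3b ran from −0.11 to 0.20, Plxna3 from −0.047 to 0.14, Ephb6 from −0.11 to 0.081 and Efna1 from −0.28 to 0.62. Without both libraries numbered 3, Sema3b was at −0.23, Efna1 at −0.32, Ephb6 at −0.16 and Robo1 at 0.0019. The cause was not tested. Unknown depth limits genes near 1 FPKM.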
